A study of Arabidopsis thaliana with 6 samples.

Results

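The 26S proteasome is the complex that unfolds and degrades proteins tagged with ubiquitin. Its transcripts were described here through 34 loci, chosen by locus identifier out of the 32834 loci in the count table. They comprised 10 loci for RPT ATPases, 10 for RPN subunits, 7 for alpha subunits and 7 for beta subunits of the 20S core. The RPT subunits form a ring of ATPases that unfolds the substrate and feeds it into the core. The RPN subunits hold ubiquitin receptors, the deubiquitylating enzyme RPN11 and scaffold proteins. Alpha subunits form the outer rings that gate the core, and beta subunits form the inner rings, of which the PBA, PBB and PBE types carry the proteolytic sites. In plants most subunits are encoded by pairs of paralogous loci, and in Arabidopsis the transcription factors NAC53 and NAC78 are known to raise proteasome gene transcription when the complex is inhibited.

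RNA was taken from whole Arabidopsis thaliana Col-0 seedlings aged 7 days, with 2 poly(A) libraries in each of 3 groups. The WT group was wild-type Col-0. The MIF_1 and MIF_3 groups were transgenic, both with the genotype pTA7002-Dexp:Myc-MIF, a dexamethasone-inducible construct for Myc-tagged MIF. Seedlings of all 3 groups, WT included, grew on 10 µM dexamethasone with sucrose. The labels do not say how MIF_1 and MIF_3 differ, and no library of uninduced seedlings or of seedlings with the vector alone was analysed here, so effects of MIF and of carrying the construct cannot be told apart. The MIF locus is not named in the labels and was not analysed here, so induction was not checked. The labels also do not say whether libraries of a group came from separate cultures, and p-values then measure only the spread between these libraries.

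The libraries held 18262579 to 24698636 counts each, the WT libraries having the fewest (21404582 and 18262579). One WT library, replicate 2, held more organelle-encoded counts than the others (0.227% against 0.0547% to 0.0633%) and more rRNA counts (1.04% against 0.298% to 0.468%). Markers of shoot and root, both part of a whole seedling, were detected. The summed level of 6 green tissue markers was 36915 to 37792 CPM (counts per 1000000, on TMM-scaled library sizes) in WT, 23678 to 25125 in MIF_1 and 26089 to 31292 in MIF_3, and 6 of 6 were lower by edgeR in the mean of both transgenic groups against WT. By group, 6 of 6 were lower in MIF_1 and 2 of 6 in MIF_3. Of all loci, 10.9% were lower in the mean, 9.85% in MIF_1 and 7.47% in MIF_3. FAMA, a guard cell transcription factor, was called in MIF_1 (-1.07 ± 0.15 on the log2 scale) but stood at -0.04 ± 0.15 in MIF_3. The summed level of 5 root markers was 24.8 to 33.2 CPM in WT, 36.8 to 38.3 in MIF_1 and 44.5 to 47.6 in MIF_3. By edgeR 1 of 5 (EXPA7) was higher in the mean and in MIF_1, and 2 of 5 (EXPA7 and CASP1) in MIF_3. Of all loci, 7.76%, 7.82% and 5.84% were higher in these comparisons. CASP2 and SMB went the other way in MIF_1, with log2 fold changes of -0.36 ± 0.26 and -0.10 ± 0.42, neither called. In MIF_3 they stood at 0.28 and 0.30, also not called. None of these markers was at 0. The part of these shifts in the results below was not tested. In bulk RNA, fewer cells of a type and less RNA per cell cannot be told apart.

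Proteasome subunit transcripts moved little between the groups. RPT3 and RPT5b, both ATPase loci, were called higher in MIF_1 and in the mean of both transgenic groups. No member was called lower in any comparison. In edgeR's quasi-likelihood test (adjusted p below 0.05 over 20438 loci), 2 of 34 members were higher and 0 lower in MIF_1 against WT, where 7.82% of all loci were called higher and 9.85% lower. In MIF_3 against WT, 0 of 34 members were called in either direction, against 5.84% and 7.47% of all loci. At an unadjusted p under 0.05 there was 1 of 34, against 27.6% of all loci, and DESeq2 called 1 higher, against 6.19% of all loci (RPT3 in both cases). DESeq2 called the same 2 members as edgeR in MIF_1 and in the mean of both groups, where it called 7.84% and 8.06% of all loci higher. At an unadjusted p under 0.05 by edgeR there were 4 of 34 in each of these comparisons, against 31.3% and 32.7% of all loci. Averaged over both transgenic groups, 2 members were higher and 0 lower, against 7.76% and 10.9% of all loci. The MIF_1 and MIF_3 comparisons share the same WT libraries, so their values are set side by side and not counted as separate support.

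The spread of the 34 log2 fold changes was narrow. In the mean comparison 32 of 34 members (94.1%) lay within 0.25 of 0 on the log2 scale, against 51.6% of all loci tested and 64.4% of the 6372 loci in the members' range of mean level (27 to 186 CPM). The SD across members was 0.131, against 0.49 across the loci in that range and 0.765 across all loci. The changes ran from -0.15 for PAC1 to 0.39 for RPT5b, and the median SE of a member was 0.087. The members' median was 0.08 against 0.01 for all loci, and without WT replicate 2 it was 0.05 against 0.02. On total counts without TMM factors, which move the median of all loci to 0.19, the members' median was 0.26. That scaling, chosen after seeing the data, called 15 of 34 members higher in the mean comparison, against 20.2% of all loci.

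In 14 of 34 members (41.2%) all 4 transgenic libraries lay above both WT libraries, against 18.9% of all loci tested and 18.4% of loci in the members' range of level. In 3 members (8.82%; RPT4a, RPT6a and PAC1) all 4 lay below, against 19.9% of all loci and 25.6% of those in range. The 14 were RPT1a, RPT2a, RPT3, RPT5b, RPN5a, RPN7, RPN10, RPN11, RPN12a, PAB1, PAG1, PBA1, PBF1 and PBG1. The summed level of the members was 3362 and 3262 CPM in WT, while MIF_1 reached 3495 and 3509 and MIF_3 reached 3407 and 3527. Every transgenic sum was above both WT sums, the closest pair being 3362 and 3407 CPM. As a share of raw counts, members took 0.313% and 0.296% in the WT libraries, 0.371% and 0.37% in those of MIF_1, and 0.357% and 0.354% in those of MIF_3, with 95% Wilson intervals of at most 0.00252 percentage points to either side, which cover counting error only. These shares leave out the TMM factors, which were 0.932 and 0.909 in WT and 1.01 to 1.06 in the transgenic libraries. Without the factors the median of all loci was itself 0.19 on the log2 scale in the mean comparison.

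**Figure D1:**
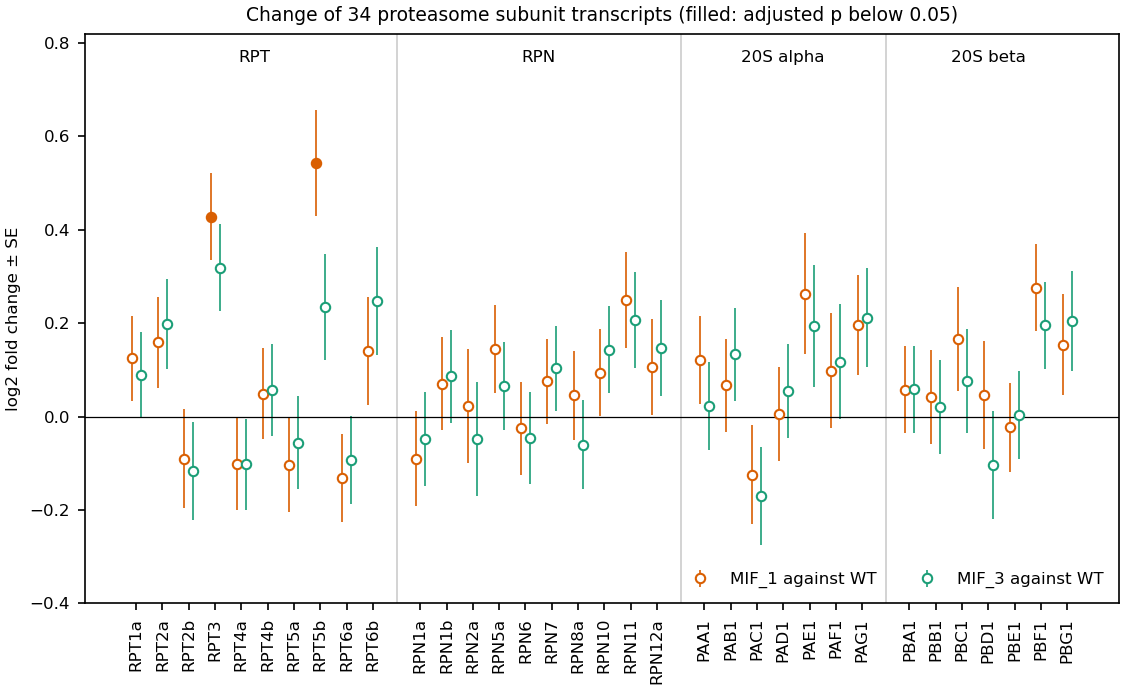
Log2 fold change (y axis, ± SE) of each of the 34 members against WT in MIF_1 (orange) and MIF_3 (green), grouped by subcomplex; filled points passed edgeR's adjusted p of 0.05. Only RPT3 and RPT5b in MIF_1 are filled, and 30 of 34 members in MIF_1 and 33 of 34 in MIF_3 lie within 0.25 of 0.

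The sequence upstream of the members was searched for TGGGC, an element reported in Arabidopsis proteasome gene promoters in connection with NAC53 and NAC78. Both strands of the 250 bases before each gene's annotated start were searched, so that TGGGC on the minus strand reads GCCCA. It was found for 15 of 34 members (44.1%), in 3 of 10 RPT, 4 of 10 RPN, 3 of 7 alpha and 5 of 7 beta loci. Of all 27443 protein-coding loci 22.7% held it, and of those tested 25.4%. The windows of 15 of 34 members reach into exons of another locus (28.0% of all windows do), and the matches of PBF1 and PBG1 lie wholly or partly in such exons. Counting matches clear of other loci's exons, 13 members (38.2%) held the element, against 20.1% of all protein-coding loci and 22.5% of those tested. Members with the element had a median log2 fold change of 0.06 in the mean comparison, and those without it 0.10, with 1 called in each set (RPT3 with, RPT5b without, although only the 53 bases next to the RPT5b start are free of other loci's exons). A match is a string of letters and not a shown binding site. Upstream windows of 4 loci are printed 5′ to 3′ on the gene's strand, from the RefSeq TAIR10.1 assembly, with each TGGGC or GCCCA in capitals. RPT3 is shown as the member called with the smallest p in the mean comparison (chr5:23568860-23569051, plus strand, shortened to 192 bases because an upstream locus has exons in the rest), RPN1b as the member with the most matches (chr4:14072583-14072832, minus strand), PBA1 as a subunit with 3 matches in near-repeats (chr4:15188494-15188743, plus strand), and PAA2 (chr2:2233769-2234018, plus strand) as a called locus without a match.
RPT3: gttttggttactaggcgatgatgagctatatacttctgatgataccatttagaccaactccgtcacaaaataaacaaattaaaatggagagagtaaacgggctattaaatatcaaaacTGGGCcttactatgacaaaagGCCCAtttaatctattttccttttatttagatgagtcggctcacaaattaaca
RPN1b: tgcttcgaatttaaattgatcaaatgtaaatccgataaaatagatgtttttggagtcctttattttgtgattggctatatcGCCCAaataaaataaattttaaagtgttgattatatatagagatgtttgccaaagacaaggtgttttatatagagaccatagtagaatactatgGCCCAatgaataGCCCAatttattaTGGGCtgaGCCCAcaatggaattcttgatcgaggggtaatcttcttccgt
PBA1: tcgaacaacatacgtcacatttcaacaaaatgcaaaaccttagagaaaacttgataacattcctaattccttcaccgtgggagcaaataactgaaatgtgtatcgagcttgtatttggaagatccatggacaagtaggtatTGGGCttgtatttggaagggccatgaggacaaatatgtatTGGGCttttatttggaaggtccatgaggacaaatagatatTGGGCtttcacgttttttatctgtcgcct
PAA2: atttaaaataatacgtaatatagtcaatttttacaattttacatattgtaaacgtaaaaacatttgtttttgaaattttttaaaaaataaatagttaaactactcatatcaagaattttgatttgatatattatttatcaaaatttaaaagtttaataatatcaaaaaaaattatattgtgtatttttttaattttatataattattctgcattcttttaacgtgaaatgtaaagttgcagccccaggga
RPT3 carried its matches 74 and 53 bases before the gene start, RPN1b had 5 matches and PBA1 had 3. RPN1b and PBA1 had log2 fold changes of 0.08 ± 0.09 and 0.06 ± 0.08 in the mean comparison, neither called by edgeR. PAA2, without a match, was called higher.

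Among the RPT ATPases, edgeR called 2 of 10 higher in MIF_1 and in the mean comparison, against 7.82% and 7.76% of all loci. The median change of the 10 in the mean comparison was 0.08. RPT3 (AT5G58290, TAIR10.1 chr5:23569052-23571854, plus strand) is a single-copy ATPase whose C-terminal tail, in yeast, docks into the alpha ring. It stood at 129 and 124 CPM in the WT libraries, 167 and 174 in MIF_1 and 154 and 163 in MIF_3. Every transgenic library was above both WT libraries, and the MIF_1 libraries were above the MIF_3 libraries. The log2 fold change was 0.43 ± 0.09 in MIF_1 (edgeR adjusted p 0.0124) and 0.32 ± 0.09 in MIF_3 (edgeR adjusted p 0.0512, just short of the threshold). For the mean of both it was 0.37 ± 0.08 (edgeR adjusted p 0.0116), a fold of 1.3, and 17.5% of all loci tested had a larger log2 fold change. Without WT replicate 1 the edgeR adjusted p in the mean comparison was 0.0611, and without WT replicate 2 it was 0.103. In MIF_1 it was 0.0527 without WT replicate 1, 0.0833 without WT replicate 2, 0.0596 without MIF_1 replicate 1 and 0.0927 without MIF_1 replicate 2.

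RPT5b (AT1G09100, chr1:2936528-2939363, minus strand) is the less abundant of the RPT5 paralogs and had the lowest level per kilobase of exon of all members in WT. It stood at 22.6 and 22 CPM in the WT libraries, 31.8 and 33.2 in MIF_1 and 27.5 and 25 in MIF_3. The 3 groups did not overlap, with WT lowest and MIF_1 highest. The log2 fold change was 0.54 ± 0.11 in MIF_1 (edgeR adjusted p 0.0102) and 0.24 ± 0.11 in MIF_3 (edgeR adjusted p 0.215), and 0.39 ± 0.10 for the mean (edgeR adjusted p 0.0233). The mean call was lost without WT replicate 1 (adjusted p 0.092), WT replicate 2 (0.122), MIF_1 replicate 1 (0.0514), MIF_1 replicate 2 (0.0675) or MIF_3 replicate 1 (0.0609), and the MIF_1 call without WT replicate 2 (0.0536), MIF_1 replicate 1 (0.0523) or MIF_1 replicate 2 (0.0739). RPT5b overlaps RBOHB on the opposite strand and RPT3 overlaps AT5G58300 on the same strand. The strand setting of the counting is not given in the sources used here, and RBOHB (6.27 to 8.53 CPM) and AT5G58300 had log2 fold changes of 0.07 and 0.01 in the mean comparison, neither called.

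The other 8 RPT loci did not pass the test in any comparison. RPT1a and RPT2a had higher levels in all 4 transgenic libraries, with log2 fold changes of 0.11 ± 0.08 and 0.18 ± 0.08 in the mean comparison. RPT6b, at 0.19 ± 0.10, overlapped between groups, since MIF_1 replicate 1 (52.0 CPM) lay between the WT libraries (51.9 and 52.4). RPT4a and RPT6a had lower levels in all 4 transgenic libraries, with log2 fold changes of -0.10 ± 0.08 and -0.11 ± 0.08. RPT2b, RPT5a and RPT4b had values of -0.10, -0.08 and 0.05. The summed level of the RPT loci was 989 and 962 CPM in WT, against 1032 and 1055 in MIF_1 and 1026 and 1044 for MIF_3, so that the transgenic sums lay above both WT sums.

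**Figure D2:**
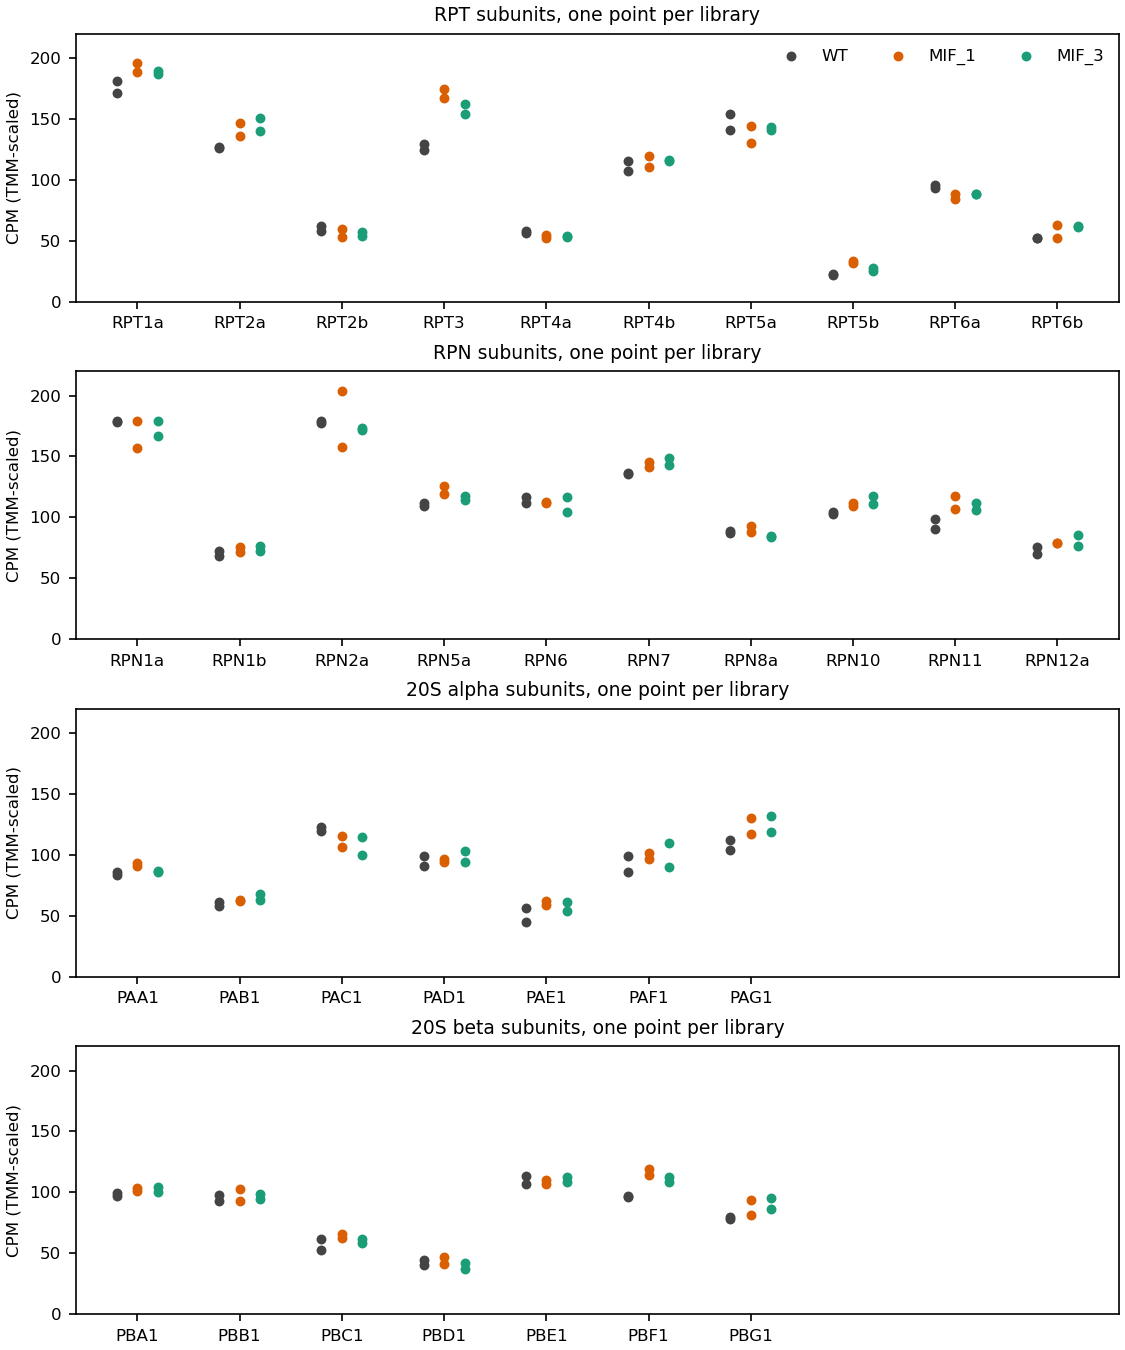
Level of each member in each library (y axis, CPM on TMM-scaled library sizes; 1 point per library; WT dark grey, MIF_1 orange, MIF_3 green), in a panel per subcomplex. WT and transgenic points stand clearly apart for RPT3 (124 to 129 CPM in WT, 154 to 174 in the transgenic libraries) and PBF1, while most other members overlap or nearly touch.

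No RPN locus passed the test in any comparison by edgeR or DESeq2. In the mean comparison edgeR called 7.76% of all loci higher and 10.9% lower. With an unadjusted p under 0.05 by edgeR there was 1 of 10 in that comparison, against 32.7% of all loci. The median change of the 10 in the mean comparison was 0.08. RPN11 (AT5G23540, chr5:7937630-7939604, plus strand), the metalloprotease that removes ubiquitin chains from substrates, had the smallest p of the group. It stood at 98.8 and 90.1 CPM in the WT libraries, 107 and 117 in MIF_1 and 106 and 112 in MIF_3. The transgenic libraries all lay above both WT libraries, while MIF_1 and MIF_3 overlapped. Its log2 fold change was 0.25 ± 0.10 in MIF_1, 0.21 ± 0.10 in MIF_3 and 0.23 ± 0.09 for the mean (edgeR adjusted p 0.108), and without WT replicate 2 the mean value was 0.16. AT5G23550, which overlaps RPN11 on the opposite strand at 9.08 and 8.08 CPM in WT, had a log2 fold change of 0.25 in the mean comparison and was not called.

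The ubiquitin receptor RPN10 had a log2 fold change of 0.12 ± 0.08 in the mean comparison. The scaffold subunits RPN5a, RPN7 and RPN12a had values of 0.11 ± 0.08, 0.09 ± 0.08 and 0.13 ± 0.09. In these 4 members all transgenic libraries lay above both WT libraries, and none was called. RPN1a, RPN1b and RPN2a, the large subunits that hold receptors and shuttle proteins, had values of -0.07, 0.08 and -0.01. The MIF_1 libraries of RPN2a stood at 204 and 158 CPM, to either side of the WT libraries at 177 and 179. RPN6 and RPN8a were at -0.04 and -0.01. The summed RPN level was 1159 and 1134 CPM in WT, against 1220.2 and 1165 in MIF_1 and 1176 and 1186 for MIF_3, with the lowest transgenic sum 1165 against the highest WT sum of 1159.

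No alpha locus passed either test, where edgeR called 7.76% of all loci higher and 10.9% lower in the mean comparison. At an unadjusted p under 0.05 by edgeR there were 0 in any comparison, against 32.7% of all loci in the mean comparison. The median of the 7 in the mean comparison was 0.10. PAG1 (AT2G27020, chr2:11528230-11531178, minus strand), the single-copy locus of its alpha type, had the smallest p. It stood at 112 and 104 CPM in the WT libraries, 117 and 130.2 in MIF_1 and 119 and 132 in MIF_3. Both WT libraries were below each transgenic library. Its log2 fold change was 0.20 ± 0.11 in MIF_1, 0.21 ± 0.11 in MIF_3 and 0.20 ± 0.09 for the mean (edgeR adjusted p 0.159). The MIF_1 value was 0.12 without MIF_1 replicate 2, and the MIF_3 value 0.14 without MIF_3 replicate 2. PAE1 had the largest alpha value, 0.23 ± 0.11, but its WT libraries stood at 56.3 and 44.7 CPM, to either side of MIF_3 replicate 1 at 54.1. PAC1, the member with the highest level per kilobase of exon in WT (98.7 CPM per kb), had the lowest value of all members, -0.15 ± 0.09 (edgeR adjusted p 0.303). PAA1, PAB1, PAD1 and PAF1 had values of 0.07, 0.10, 0.03 and 0.11. The summed alpha level was 624 and 599 CPM for WT, 629 and 659.6 for MIF_1 and 607 and 675 for MIF_3, so that MIF_3 replicate 1 lay between the WT libraries.

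The beta loci gave no call by edgeR or DESeq2, where edgeR called 7.76% of all loci higher and 10.9% lower in the mean comparison. In that comparison 1 of 7 had an unadjusted p under 0.05 by edgeR, against 32.7% of all loci, and the median was 0.06. PBF1 (AT3G60820, chr3:22471769-22473971, minus strand), a non-catalytic beta subunit encoded by a single locus, had the smallest p. It stood at 95.9 and 97.3 CPM in the WT libraries, 114 and 119.5 in MIF_1 and 109 and 113 in MIF_3. No transgenic library was as low as either WT library, and MIF_1 was above MIF_3. The log2 fold change was 0.28 ± 0.09 in MIF_1 (edgeR adjusted p 0.0712), 0.20 ± 0.09 in MIF_3 (edgeR adjusted p 0.211) and 0.24 ± 0.08 for the mean (edgeR adjusted p 0.0739). With upper-quartile factors the mean value passed narrowly, at an adjusted p of 0.0497. The loci of the catalytic types, PBA1, PBB1 and PBE1, had log2 fold changes of 0.06 ± 0.08, 0.03 ± 0.09 and -0.01 ± 0.08. PBC1, PBD1 and PBG1 were at 0.12, -0.03 and 0.18. The summed beta level was 590.3 and 567 CPM for WT, 614 and 629 for MIF_1 and 598.5 and 623 for MIF_3, the transgenic sums lying above both WT sums. AT3G60810, which overlaps PBF1 on the opposite strand, had a log2 fold change of -0.17 in the mean comparison and was not called.

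No member was called between the transgenic groups. In MIF_3 against MIF_1 edgeR called 0 of 34 members, where 0.475% of all loci were higher and 1.29% lower in MIF_3, and DESeq2 also called 0, against 3.79% of all loci. At an unadjusted p under 0.05 there was 1 of 34, against 16% of all loci. It was RPT5b, with a log2 fold change of -0.31 ± 0.11 (edgeR adjusted p 0.211). For RPT3 the difference was -0.11 ± 0.09 (edgeR adjusted p 0.632). The MIF_1 and MIF_3 libraries overlapped for 25 of 34 members and did not overlap for the remaining members. Over all loci tested, the share that did not overlap was 47.3%. The members' median difference was 0.00 and their range -0.31 to 0.11.

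Levels per kilobase of exon were compared between subunits after summing paralogous loci. Exon length counted every base in an exon of any annotated transcript of a locus, so it can exceed the length of each single transcript. The order of subunits depends on that length, and on how reads matching both paralogs were counted, which is not given. In WT the sums ran from 113.6 CPM per kb for PAD to 45.9 for RPN9, with RPN13 apart at 16.4. The leading subunits PAD (113.6 ± 5.39, SD, n = 2), RPT2 (111.5 ± 1.39) and PAA (110.8 ± 4.5) did not differ beyond their spread in WT. In MIF_1 PAA stood first at 134 ± 3.56, and in MIF_3 PAA (124.8 ± 0.249), PAD (120.4 ± 8.19) and RPT2 (120.3 ± 3.66) led, with PAD replicate 2 (126.2) above both PAA libraries, so that their order did not hold beyond the spread. Of 33 subunits fitted as sums in edgeR, 1 was higher in the mean comparison (RPT3) and 0 lower. In the fit of single loci 7.76% and 10.9% of all loci were. A positive log2 fold change was found for 29 subunits, against 51.5% of all loci in the fit of single loci. The median of the subunits was 0.10.

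The counts of a subunit were shared between its paralogs in proportions that did not overlap between WT and the transgenic libraries for several subunits. PAA1 gave 56.8% and 58.3% of the PAA counts in WT, against 51% and 50.6% in MIF_1 and 51.2% and 50.8% for MIF_3. The transgenic values lay within less than a percentage point of each other and 6.61 points below WT on average, with counting intervals (95% Wilson) of 2 points or less to either side. No other of the 23 pairs had a larger difference between the means. PAA1 itself had a log2 fold change of 0.07 ± 0.08, and PAA2 one of 0.46 ± 0.09. PBD1 gave 49.9% and 50.6% of its pair in WT, against 45.5% and 46.1% in MIF_1 and 46.1% and 46.3% for MIF_3. RPT6a stood at 64.8% and 64% for WT, 62.9% and 57.2% for MIF_1 and 59.1% and 58.6% for MIF_3. RPT5a stood at 87.2% and 86.5% for WT, 81.9% and 79.7% for MIF_1 and 83.7% and 85.1% for MIF_3. RPT2a was the exception in direction, with 67.1% and 68.5% for WT, 71.8% and 71.1% for MIF_1 and 71.1% and 73.5% for MIF_3.

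In all, WT and transgenic shares did not overlap in 10 of 23 pairs, the a or 1 locus being lower in 9 and higher in 1. For the level of single loci, a different quantity, 38.8% of all loci tested did not overlap between WT and the transgenic libraries, and the rate over paralog pairs outside the proteasome was not computed. With 4 libraries against 2 the exact two-sided permutation test cannot go below 0.133, the value each of these pairs had, so no pair could pass 0.05. Some of the 10 pairs were barely apart. The nearest WT and transgenic shares were 99.55% and 99.53% for PAC1, 71.18% and 71.09% for RPN1a, and 66.9% and 66.7% for PAD1. The counting intervals of those libraries overlapped, and PAC2 had only 7 to 28 counts per library. The split in direction over pairs was not tested. The pairs described were chosen after their values were seen. Coding sequences within pairs were 86.5% identical for PAA, 84.8% for PBD, 80.7% for RPT5, 89.6% for RPT2 and 94.4% for RPT6, where the longest identical run was 104 bases. How reads that match both loci of a pair were counted is not given in the sources used here, so shares of near-identical pairs such as RPT6 are uncertain.

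**Figure D3:**
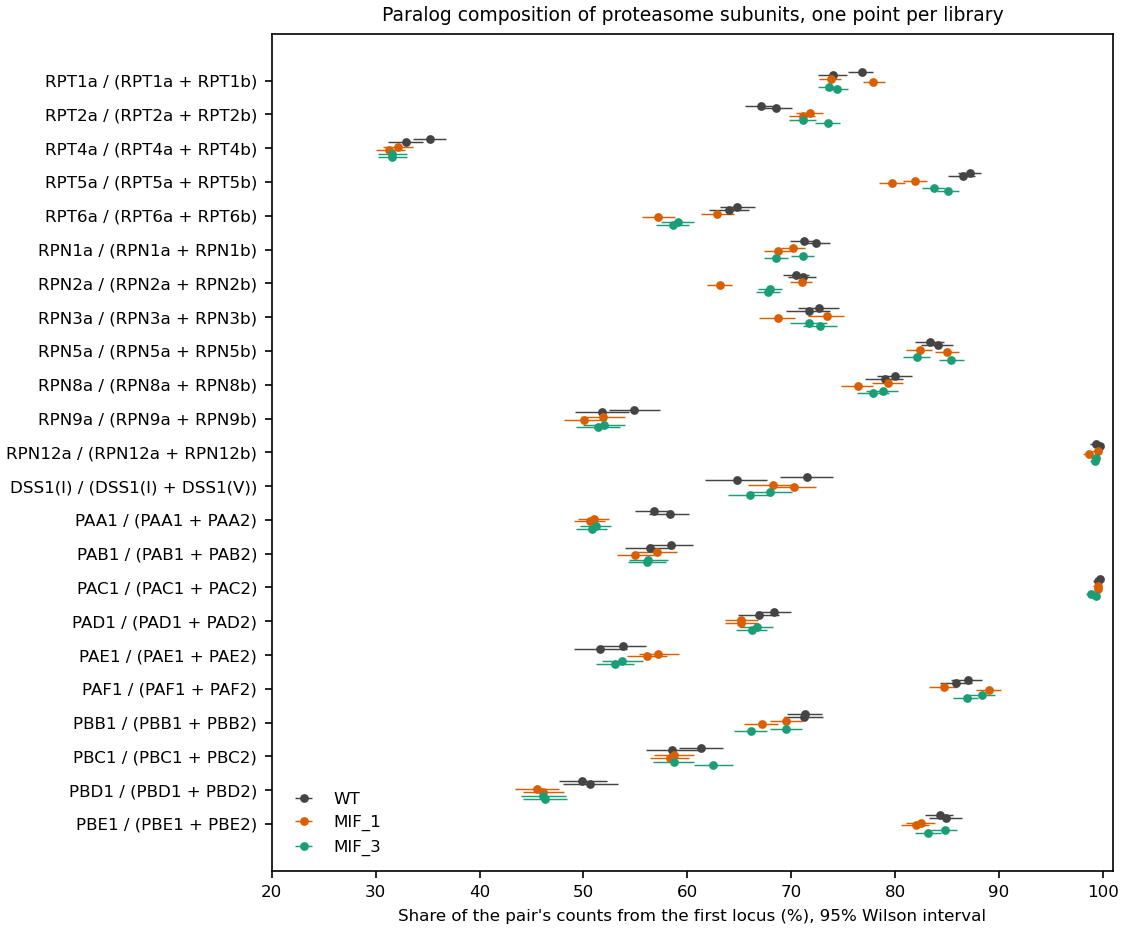
Share of each paralog pair's counts that came from the first-named locus (x axis, percent, with 95% Wilson intervals for counting error; 1 point per library; WT dark grey, MIF_1 orange, MIF_3 green). The PAA1 share is 56.8% and 58.3% in WT and 50.6% to 51.2% in the transgenic libraries, and the RPT2a share is higher in the transgenic libraries.

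The 22 other loci for proteasome subunits, mostly the paralogs of the members, were in the main close to WT too. edgeR called 1 of 22 higher (PAA2) and 0 lower in the mean comparison, against 7.76% and 10.9% of all loci. A positive log2 fold change was found for 22 of 22, against 67.6% of the members and 51.5% of all loci. Their median was 0.15 against 0.08 for the members and 0.01 for all loci. The largest values, of RPN12b (0.77 ± 0.65) and PAC2 (0.70 ± 0.55), rest on 4 to 25 and 7 to 28 counts per library, and neither was called. PAA2 (AT2G05840, chr2:2234019-2236470, plus strand), the second locus of its alpha type, stood at 65.7 and 59.6 CPM in the WT libraries, 87.1 and 91.3 in MIF_1 and 82.5 and 83 in MIF_3. All 4 transgenic libraries were well above both WT libraries. Its log2 fold change was 0.51 ± 0.10 in MIF_1 (edgeR adjusted p 0.00781), 0.40 ± 0.10 in MIF_3 (edgeR adjusted p 0.0283) and 0.46 ± 0.09 for the mean (edgeR adjusted p 0.0065, and 0.0755 without WT replicate 2). The MIF_1 call was lost without WT replicate 2 (0.0637) or MIF_1 replicate 2 (0.0647), and the MIF_3 call without any one library (0.0521 to 0.17). PBB2, DSS1(I) and RPN9b, the next by p, had values of 0.25, 0.29 and 0.24 and were not called.

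Regulators and partners of the proteasome held the largest change in the pathway. Of 17 such loci, edgeR called 2 higher (NAC53 and PA200) and 2 lower (NAC78 and RAD23C) in the mean comparison, with a median of 0.11. Of all loci, 7.76% were called higher and 10.9% lower. NAC53 (AT3G10500, chr3:3271217-3274176, plus strand), a membrane-tethered transcription factor that activates proteasome genes, stood at 16.2 and 15.3 CPM in the WT libraries, 53.5 and 58.6 in MIF_1 and 55.1 and 49.2 in MIF_3. All 4 transgenic libraries stood at more than 3 times the higher WT library. The log2 fold change was 1.83 ± 0.12 in MIF_1 (edgeR adjusted p 2.17e-05), 1.73 ± 0.12 in MIF_3 (edgeR adjusted p 3.02e-05) and 1.78 ± 0.11 for the mean, a fold of 3.43 (edgeR adjusted p 1.03e-05), and 1.92% of all loci tested had a larger value. Its call held under each alternative run, with log2 values of 1.74 to 1.96 for the mean.

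NAC78 (AT5G04410, chr5:1243684-1246684, plus strand), a close homolog of NAC53, was lower. It stood at 80.2 and 82.6 CPM in the WT libraries, 65.8 and 71.3 in MIF_1 and 66.3 and 63 in MIF_3, with all 4 transgenic libraries below both WT libraries. Its log2 fold change was -0.25 ± 0.10 in MIF_1 and -0.33 ± 0.10 in MIF_3, neither called, and -0.29 ± 0.09 for the mean (edgeR adjusted p 0.0415). That call was lost without any one of the 6 libraries (adjusted p 0.054 to 0.203), with the replicate block (0.066), with upper-quartile factors (0.0696), and on total counts, where the value was -0.11. NAC78 overlaps AT5G04420 on the opposite strand, which had a log2 fold change of -0.06 in the mean comparison and was not called.

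PA200 (AT3G13330, chr3:4319490-4330218, minus strand), an activator that caps the 20S core in place of the regulatory particle, stood at 78.4 and 77 CPM in the WT libraries, 116 and 93.8 in MIF_1 and 113 and 102 in MIF_3. Every transgenic library was above both WT libraries, with MIF_1 replicates further apart than the others. The log2 fold change was 0.43 ± 0.12 in MIF_1 (edgeR adjusted p 0.0359), 0.47 ± 0.12 in MIF_3 (edgeR adjusted p 0.0328) and 0.45 ± 0.11 for the mean (edgeR adjusted p 0.0165). The mean call was lost without WT replicate 1 (0.0866) or WT replicate 2 (0.105). The MIF_1 call was lost without WT replicate 1, WT replicate 2 or MIF_1 replicate 1 (0.119 to 0.232), the last of which lowered the log2 value to 0.27, and the MIF_3 call without WT replicate 1, WT replicate 2 or MIF_3 replicate 1 (0.118 to 0.141). RAD23C, a shuttle protein that brings ubiquitylated substrates to the proteasome, stood at 73.3 and 71.2 CPM in the WT libraries, 60.2 and 60 in MIF_1 and 57.1 and 60.6 in MIF_3. All 4 transgenic libraries were below both WT libraries. In MIF_1 the log2 fold change was -0.27 ± 0.10 and in MIF_3 -0.30 ± 0.10, neither called by edgeR. The log2 fold change for the mean was -0.28 ± 0.08 (edgeR adjusted p 0.0428), and it was lost without any one library (0.0536 to 0.221), with the replicate block (0.0686), with no low-count filter (0.0534), with upper-quartile factors (0.0795) and on total counts, where it was -0.10.

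**Figure D4:**
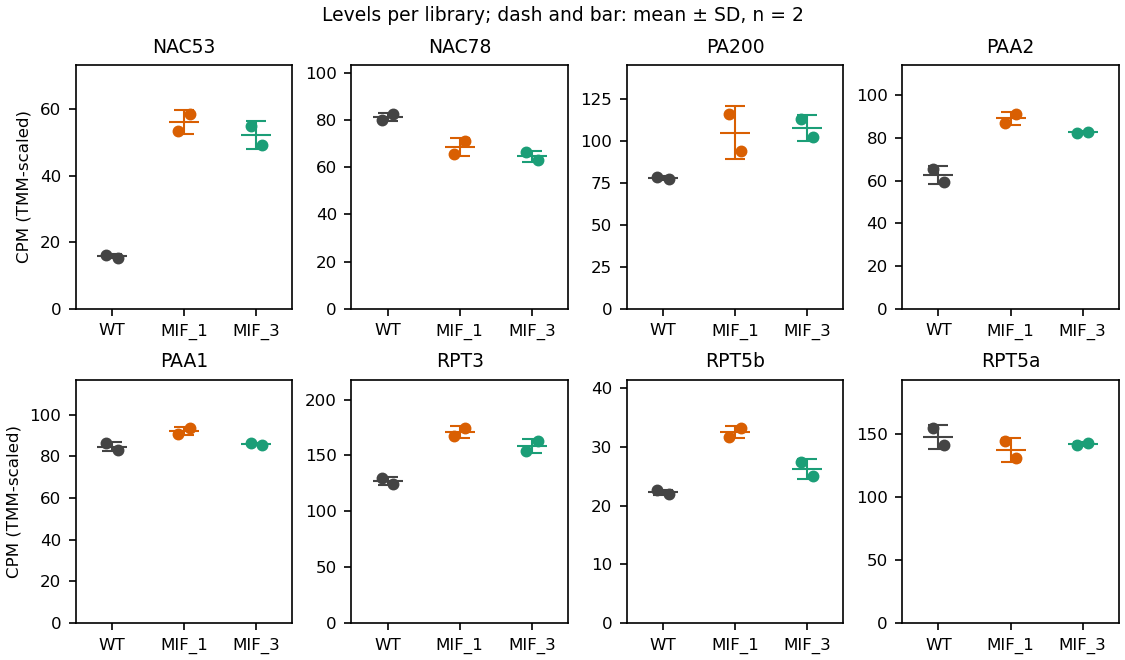
Level per library (y axis, CPM on TMM-scaled library sizes, from 0) of NAC53, NAC78, PA200, PAA2, PAA1, RPT3, RPT5b and RPT5a in WT, MIF_1 and MIF_3; points are libraries, dash and bar the mean ± SD, n = 2. NAC53 rises from 15.3 and 16.2 CPM in WT to 49.2 to 58.6 in the transgenic libraries, while the levels of PAA1 (83.2 to 93.6 CPM over all libraries) and RPT5a (131 to 154 CPM) overlap or nearly touch between groups.

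Related complexes stood near WT. The COP9 signalosome is a complex that resembles the RPN lid and removes NEDD8 from cullins. Of its 10 loci edgeR called 0 in the mean comparison, against 7.76% of all loci higher and 10.9% lower. The median of the 10 was 0.06. At an unadjusted p under 0.05 there was 1 (CSN3, 0.22 ± 0.09, with a DESeq2 adjusted p of 0.244), against 32.7% of all loci. Of 7 loci for ubiquitin activation and the SCF core, edgeR called 1 higher and 0 lower, against 7.76% and 10.9% of all loci, with a median of 0.03. That locus was UBQ10, a polyubiquitin gene. It stood at 1123 and 1172 CPM in the WT libraries, 1335 and 1575 in MIF_1 and 1355 and 1613 in MIF_3. In MIF_1 its log2 fold change was 0.34 ± 0.12 and in MIF_3 0.37 ± 0.12, neither called by edgeR. The transgenic libraries all lay above both WT libraries, and its log2 fold change for the mean was 0.36 ± 0.10 (edgeR adjusted p 0.0365; lost without WT replicate 1, at 0.201, WT replicate 2, at 0.141, or MIF_1 replicate 2, at 0.125). RBX1A, the RING subunit of SCF ligases, had a value of 0.25 ± 0.10 and was not called, and the cullin CUL1 had one of 0.08 ± 0.08.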

How the data were processed

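Read counts per locus, deposited by the authors as whole numbers without normalization for 32834 loci in 6 libraries, were used. The tools named for this table are fastp, STAR and HTSeq with the TAIR10 build, per the submitters' processing notes. Their versions, the annotation release and the strand setting are not stated in these sources. All count columns were used.

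Counts were tested with edgeR 4.0.16 (limma 3.58.1, R 4.3.3): filterByExpr (minimum count 10, minimum total 15) left 20438 loci with all 34 members, followed by TMM factors (0.909 to 1.06) and a quasi-likelihood fit in which each of the 3 groups had its own coefficient (all 6 libraries, 3 residual degrees of freedom). Calls needed an adjusted p below 0.05 (Benjamini-Hochberg, 20438 loci). Each SE was derived from the test, as the size of the log2 fold change divided by the root of F. Alternatives included DESeq2 1.42.0, other scalings and filters, a replicate block and leaving out each library.

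Members and lists were chosen with earlier results of these data known. Values in every library are given for members called in the mean comparison or in MIF_3 against MIF_1, and for the smallest p of each subcomplex. They are also given for NAC53 and NAC78, and for the called among the 4 smallest p of each companion list other than the tissue markers. Levels of tissue markers are given as sums over each list. The named tissue markers and genes named for their paralog shares or largest and smallest values were chosen after these were seen. Names and upstream sequence came from RefSeq TAIR10.1, which held 34 of 34 members. Replicate counts differed beyond sampling noise in each group (chi-square per degree of freedom 9.33 to 25.1), so no library was a copy of another.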

Additional observations from a re-analysis of the deposited data

Results flagged for a closer look

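FAMA, the guard cell transcription factor among the 6 green tissue markers, differed between the transgenic groups. Its log2 fold change against WT was -1.07 ± 0.15 (SE) in MIF_1 and -0.04 ± 0.15 in MIF_3, and the value for MIF_3 against MIF_1 was 1.03 ± 0.15 (edgeR adjusted p 0.0101). Of the proteasome members and the other listed loci, no other was called in that comparison. Both values against WT rest on the same WT libraries.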

How the results depend on the processing

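The number of members called changed with several settings. In MIF_3 against WT, where 0 were called, 1 (RPT3) was called higher with DESeq2, with upper-quartile factors, with a mean count of at least 50, and with organelle-encoded and rRNA loci removed. At an adjusted p below 0.01, 0 members were called in MIF_1 and 0 in the mean comparison. On total counts without TMM factors, an alternative chosen after seeing the data, 13 of 34 were called higher in MIF_1, 7 in MIF_3 and 15 in the mean, against 18.8%, 11.5% and 20.2% of all loci; the median of all loci then moved to 0.21, 0.17 and 0.19 on the log2 scale and the members' median to 0.28, 0.23 and 0.26. With paralog loci summed per subunit, 1 was called in MIF_1 and 1 in the mean (RPT3). Leaving out each library in turn gave 0 to 2 members higher in MIF_1 and 0 to 2 in the mean. RPT3 and RPT5b were both lost from MIF_1 without WT replicate 2 or either MIF_1 library. A fit left with 1 library in a group assumes that it varies like the other groups.

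With the replicate block, 2 members (RPT3 and RPT5b) were called higher in MIF_1 and in the mean, and 0 in MIF_3. The labels do not say what same-numbered libraries share beyond the number. Over the loci tested, their deviations from the group means correlated at -0.042, -0.036 and 0.036. The block moved the count of all loci called in the mean from 3822 to 3461. Over 3650 alternative values of single genes, 3314 kept their direction and side of the threshold, 91 lost the call, 87 gained it, 158 changed sign without a call on either side, and 0 reversed a call. No mean comparison was possible with only the libraries of 2 groups. With 2 libraries per group and a median SE of 0.1 in each set, changes of the size seen in most members were not detectable.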
